A study of Homo sapiens with 2 samples.

Results

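The 10 genes described here encode the secreted IGF-like protein IGFL1 and parts of the insulin-like growth factor (IGF) system of keratinocytes. These parts are the binding proteins IGFBP2, IGFBP3, IGFBP4, IGFBP6 and IGFBP7, the receptors IGF1R and INSR, and the receptor substrates IRS1 and IRS2. All 10 genes were taken by gene symbol from a table of 15159 genes, in which each is listed. They were chosen by gene family or role and by their read counts and ratios in these same libraries, which had been seen. Every value of the comparison below is therefore a description. The data are RNA-seq of 2 libraries of HaCaT, a spontaneously immortal line of human skin keratinocytes. The vector control was a dish given 4 µg of MigR1, a retroviral plasmid with a GFP marker, and the other dish received 4 µg of MigR1-Fli1, made to overexpress FLI1, a transcription factor of the ETS family. In both, DNA was delivered with a lipid reagent, the medium was changed after 6 hours, and RNA was taken on day 2 after a check for GFP. A sort for transfected cells is not mentioned in the labels, so each library may mix cells with and without the plasmid. The study set out to see whether FLI1 made in keratinocytes goes with expression of psoriasis-linked inflammatory genes. Below, "with vector" and "with FLI1" name the vector control and the FLI1 library.

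IGF1 and IGF2 signal through the receptor tyrosine kinases IGF1R and INSR, which phosphorylate the docking proteins IRS1 and IRS2 and so activate PI3K and AKT. Secreted IGF-binding proteins hold the ligands and set how much reaches the receptors. In skin, IGFs from the dermis act on IGF1R of basal keratinocytes. IGFL1 resembles the IGFs in its cysteine pattern but binds another receptor, IGFLR1 of the TNF receptor family, and its mRNA is known to be raised in psoriatic skin.

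Rounded gene counts summed to 14497105 reads with vector and 14677273 with FLI1. The FLI1 gene itself had 64 reads with vector and 2452 with FLI1. The keratinocyte genes KRT5, KRT14, TP63, DSG3, COL17A1 and ITGA6 were all abundant, with 170908 summed reads with vector and 157401 with FLI1. Of these 6 genes, 3 were higher and 3 lower with FLI1. KRT5, the largest part of the sum, had 89561 and 74603 reads, and COL17A1 had 7155 and 9261. Of 22 defining genes of fibroblasts, melanocytes, endothelium and leukocytes, 12 are listed and 6 had at least 20 reads in 1 of the libraries. Their summed reads with vector and with FLI1 were 101 and 99 for fibroblasts and 66 and 176 for melanocytes. For endothelium they were 53 and 92, and for leukocytes 267 and 411. Of the melanocyte reads, 3 and 97 were from PMEL (log2 ratio 4.81, interval 3.43 to 7.33). Another 56 and 72 were from MITF (interval -0.15 to 0.90). VWF had 52 and 90 of the endothelial reads (interval 0.29 to 1.32). Most of the leukocyte reads were from CD68, a lysosomal protein gene abundant in macrophages. CD68 had 246 and 379 reads, or 11.87 and 18.27 FPKM, and an interval of its log2 ratio from 0.40 to 0.87. PTPRC, CD3E, PECAM1, DCN and TYR are not listed in the table. The part of these other cell types in the values below was not tested. With 1 library per group there was no replicate check and no test, and the 95% intervals given cover counting error only and compare these 2 libraries, not the conditions.

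IGFL1 stood apart from the other members, with 212 reads with vector and 761 with FLI1. Its deposited FPKM, a level per transcript length and depth, was 29.03 with vector and 104.20 with FLI1, which moved its rank among all listed genes from 3151 to 837. The log2 ratio of reads, FLI1 library over control, was 1.85 (95% counting interval 1.63 to 2.08), or 3.60-fold (3.10-fold to 4.22-fold). Among the 11659 genes that reached 20 reads in either library, the filter used throughout, IGFL1 was 36th by log2 ratio and 21st by the lower limit of the interval. RNA from bulk cells cannot tell a larger number of IGFL1-expressing cells from more IGFL1 RNA per cell.

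IGFL1 (gene ID 374918) spans 46229752 to 46231243 on chromosome 19 in GRCh38, plus strand, and its GENCODE transcript has 4 exons and 769 bases. An annotated antisense gene, AC006262.3, covers 95 of its exonic bases on the opposite strand. Since the strand setting of the counting is not given in the sources used here, reads from both strands could not be told apart in those bases. IGFL1 counts were whole in both libraries, and apart from the antisense gene no other annotated gene shared a stretch of at least 50 bases with its transcript at 98% identity or more.

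Of its family members on the same chromosome, IGFL4 had a log2 ratio near 0. IGFL4 had 394.42 estimated reads with vector and 429.93 with FLI1, a log2 ratio of 0.13 (-0.07 to 0.33), in counts that were not whole. At 32.02 FPKM with vector and 34.72 with FLI1, IGFL4 was close to IGFL1 with vector and well below it with FLI1. IGFL2 had 2 and 6 reads, too few to place (interval -0.89 to 4.93), and IGFL3 is not listed in the table. IGFLR1, the receptor gene for IGFL1, had 16 reads with vector and 12 with FLI1, below the 20-read filter, and its interval (-1.62 to 0.76) included 0. By FPKM, IGFL1 exceeded IGFLR1 36.3-fold with vector and 155-fold with FLI1, a ratio that rests on those few receptor reads.

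Within 500 kb on either side of IGFL1, 18 other genes are listed and 13 of them passed the 20-read filter. Their log2 ratios ran from -0.42 to 0.14 with a median of -0.06, and 0 of them differed 2-fold in either direction. Of the 13 intervals, 1 lay above 0 and 3 lay below it. Over all 11659 genes past the filter, 1.19% reached 2-fold on the higher side and 0.48% on the lower, while 16.5% had an interval above 0 and 14.7% below it. At these shares a count of 0 among 13 genes is near the background, and nothing particular to the locus is read from it.

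**Figure D1:**
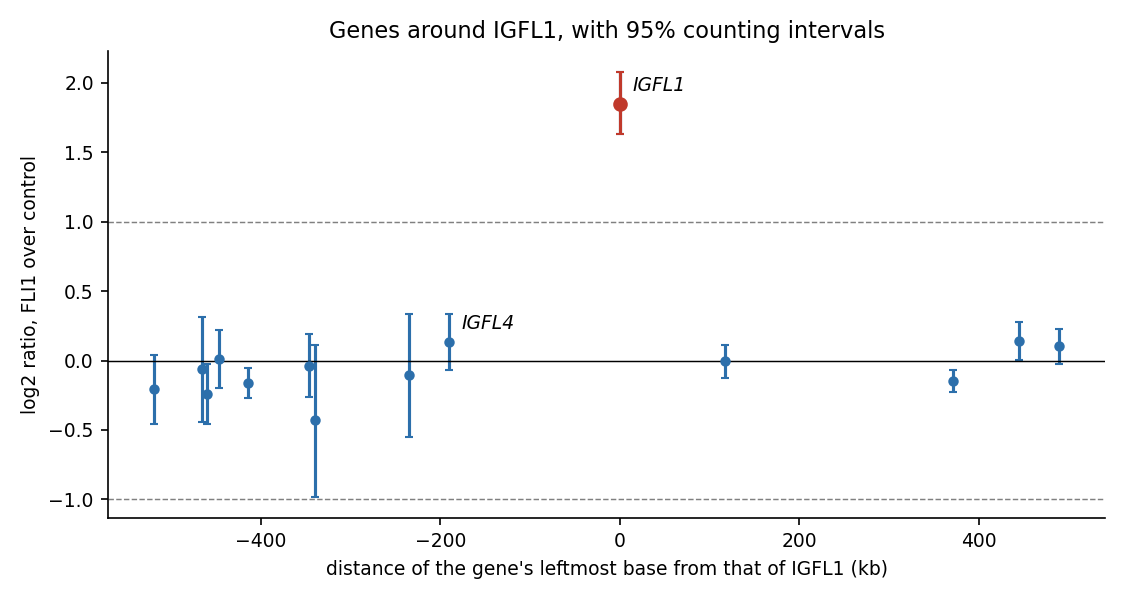
Log2 ratio of reads (FLI1 library over vector control) for IGFL1 (red) and the 13 neighbouring genes past the 20-read filter (blue), against distance from IGFL1 in kb; bars are 95% counting intervals and dashed lines mark 2-fold. IGFL1 stands at 1.85, while the neighbours lie between -0.42 and 0.14.

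Because FLI1 binds DNA around the letters GGAA, the 250 bases before the annotated start were read for IGFL1 and for IGFL4, the family member whose interval included 0. They are shown so that the upstream letters of both genes can be set side by side. Both come from RefSeq (GRCh38.p14), are written 5′ to 3′ along the gene's own strand, and have each GGAA or its reverse TTCC in capitals. The IGFL1 stretch is chr19:46229492-46229741 on the plus strand and the IGFL4 stretch chr19:46077630-46077879 on the minus strand; RefSeq lists another start for IGFL4, not shown.
IGFL1: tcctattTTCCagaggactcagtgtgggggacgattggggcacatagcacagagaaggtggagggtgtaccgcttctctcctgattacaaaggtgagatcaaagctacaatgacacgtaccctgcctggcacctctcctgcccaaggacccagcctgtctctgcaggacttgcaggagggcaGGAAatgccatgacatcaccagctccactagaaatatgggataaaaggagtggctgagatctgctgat
IGFL4: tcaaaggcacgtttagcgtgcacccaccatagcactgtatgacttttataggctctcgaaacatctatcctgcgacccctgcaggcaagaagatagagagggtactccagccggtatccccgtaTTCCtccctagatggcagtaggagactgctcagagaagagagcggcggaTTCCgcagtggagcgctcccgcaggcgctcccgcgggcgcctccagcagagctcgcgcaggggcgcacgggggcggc
On both strands together, IGFL1 had 2 GGAA matches, beginning 243 and 68 bases before the start, and this stretch of IGFL4 also had 2. The IGFL4 window not shown had 4. At least 1 match was present in 92.7% of 35116 RefSeq windows of the same length, with a median of 3 per window. The longer forms CCGGAA (14.5% of windows) and AGGAAG (28.7%), which both contain the core, and the AP-1 motif TGANTCA (6.57%) had no match in either stretch. The form TGANNTCA, found in 10.1% of windows, had 2 matches in IGFL1, beginning 157 and 58 bases before the start, and none in IGFL4. TATAAA, found in 10.7% of windows, had 1 match in the IGFL4 stretch shown and none in its other window or in IGFL1. These matches describe letters only. The same windows were found for 9 of the 10 members. Among them the most GGAA matches, 7, were before the RefSeq start of IGFBP6. That window, chr12:53097417-53097666, lies mostly inside the GENCODE span of IGFBP6, which begins at 53097436.

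By a rule of nearest log2 ratio among 2169 genes with a mean FPKM within 2-fold of its own, the genes most like IGFL1 included the chemokine gene CCL5, the nearest, and the antiviral gene RSAD2. Their log2 ratios were 2.29 and 1.33, so the nearest still differed from IGFL1 by 0.44. Over 2 libraries this likeness is a difference of 1 number per gene.

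Among the IGF-binding proteins, IGFBP3 and IGFBP6 were slightly higher with FLI1, IGFBP7 was slightly lower, and for IGFBP4 and IGFBP2 no difference was detectable at this depth. IGFBP6, a binding protein that prefers IGF2, was the most abundant of them, with 1341 reads and 137.69 FPKM with vector and 1655 reads and 169.42 FPKM with FLI1. Its log2 ratio of reads was 0.31 (0.21 to 0.42), a 1.24-fold difference. IGFBP3, the main carrier of IGFs in serum, had 2299 reads with vector and 3086 with FLI1, or 67.83 and 90.17 FPKM. Its log2 ratio of reads was 0.43 (0.35 to 0.51), a 1.35-fold difference. IGFBP6 and IGFBP3 together made up most of the summed FPKM of the 5 binding proteins, which was 245.6 with vector and 296.7 with FLI1. IGFBP6 supplied 56.1% and 57.1% of that sum, and IGFBP3 27.6% and 30.4%. In GRCh38, IGFBP6 spans 53097436 to 53102345 on the plus strand of chromosome 12, and IGFBP3 45912245 to 45921874 on the minus strand of chromosome 7.

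IGFBP7, which binds IGFs weakly and is also found in vessel walls and matrix, had 584.03 estimated reads with vector and 496.65 with FLI1. Its log2 ratio of reads was -0.22 (-0.40 to -0.05), and its FPKM, 36.69 and 34.01, gave a ratio of 0.927. The gene spans 57030773 to 57110385 on the minus strand of chromosome 4. The exons of POLR2B on the opposite strand cover 270 bases of its last exon, which spans 57030773 to 57031336. IGFBP7 counts were not whole, and POLR2B had 2001.97 and 2167.35 estimated reads. The antisense gene IGFBP7-AS1 overlaps 94 exonic bases of IGFBP7. The part of this overlap in the IGFBP7 value was not tested.

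IGFBP4, an inhibitor of IGF action that the protease PAPPA cleaves, had 84 and 82 reads, with a log2 ratio of -0.03 (-0.48 to 0.43). IGFBP2 had 4 reads with vector and 2 with FLI1 and alone of the 10 genes missed the 20-read filter. Its interval, -4.46 to 1.81, leaves its direction undetermined. IGFBP1, IGFBP5, IGFBPL1 and IGFALS are not listed in the table. IGFBP4 is on chromosome 17 (40443461 to 40457731, plus strand) and IGFBP2 on chromosome 2 (216632828 to 216664436, plus strand).

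The receptor genes differed far less between libraries than from each other. IGF1R had 1388 reads with vector and 1439 with FLI1, or 11.61 and 12.64 FPKM, and its log2 ratio of reads was 0.06 (-0.05 to 0.17). INSR had 88 and 121 reads, or 0.66 and 0.90 FPKM, and a log2 ratio of 0.47 (0.06 to 0.88), with a lower limit close to 0. Per length, IGF1R was thus 17.6-fold above INSR with vector and 14.04-fold with FLI1. IGF2R, which clears IGF2 and carries mannose 6-phosphate proteins to lysosomes, had 4532 and 5153 reads and a log2 ratio of 0.19 (0.14 to 0.25). INSRR is not listed in the table. IGF1R spans 98648539 to 98964530 on the plus strand of chromosome 15, and INSR 7112255 to 7294034 on the minus strand of chromosome 19.

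Of the receptor substrates, IRS2 was higher with FLI1, while for IRS1 no difference was detectable at this depth. IRS2 had 111.34 estimated reads with vector and 179.32 with FLI1, or 0.97 and 1.55 FPKM. Its log2 ratio was 0.69 (0.35 to 1.05), or 1.62-fold, the second highest among the members. That interval overlapped those of INSR, IGFBP3 and IGFBP6, so its place among them is not settled by the counts. IRS2 counts were not whole although 1 transcript is listed for it, and an antisense gene, AL162497.1, covers 115 of its exonic bases on the opposite strand. IRS1, its closest relative, had 342 and 363 reads, or 2.48 and 2.61 FPKM, and a log2 ratio of 0.09 (-0.12 to 0.31). IRS1 was above IRS2 in both libraries, 2.56-fold with vector and 1.68-fold with FLI1 by FPKM. The intervals of the 2 genes did not overlap, IRS2 starting at 0.35 and IRS1 ending at 0.31. IRS2 spans 109752698 to 109786568 on chromosome 13 and IRS1 226731317 to 226799759 on chromosome 2, both on the minus strand.

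**Figure D2:**
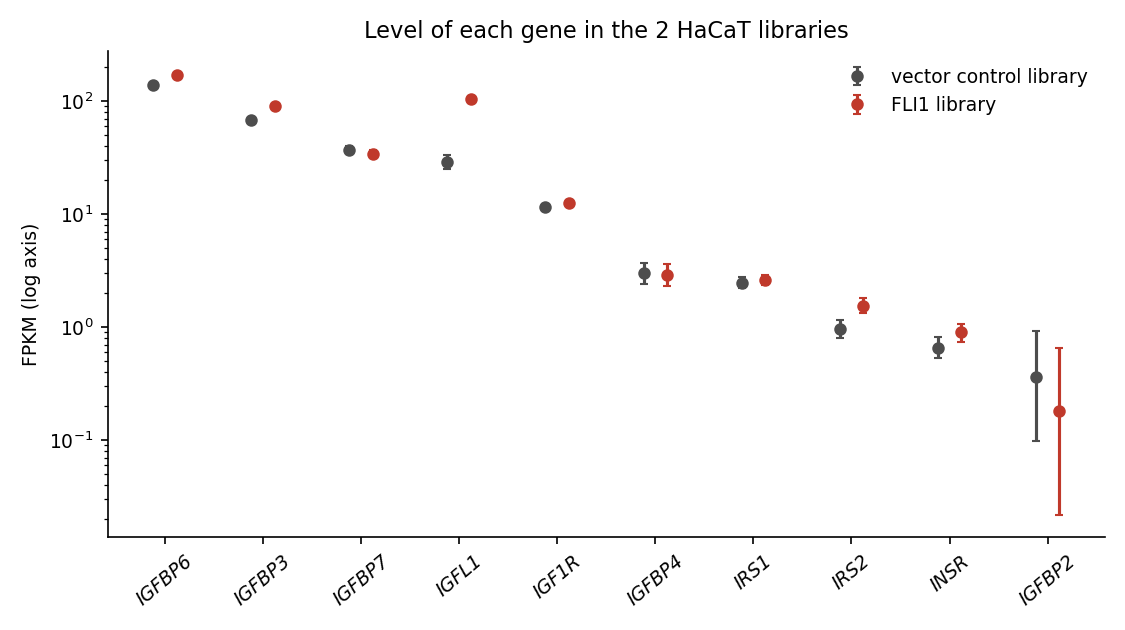
Deposited FPKM of the 10 genes on a log axis in the vector control library (grey) and the FLI1 library (red); bars are 95% Poisson counting intervals scaled from reads. IGFL1 moves from 29.03 to 104.20, while IGFBP6 is the highest gene in both libraries and IGFBP2 the lowest.

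With vector the order of FPKM ran from IGFBP6 through IGFBP3, IGFBP7, IGFL1, IGF1R, IGFBP4, IRS1, IRS2 and INSR to IGFBP2. With FLI1, IGFL1 (96.9 to 112 FPKM by its counting interval) stood above IGFBP3 (87.0 to 93.4) and IGFBP7, and the other genes kept that order. Neighbours with vector whose counting intervals overlapped were IGFBP4 with IRS1, IRS2 with INSR, and INSR with IGFBP2. The intervals of IGFBP7 (33.8 to 39.8) and IGFL1 (25.3 to 33.2) came close without overlapping. With FLI1, IGFBP4 and IRS1 overlapped again, while IRS2 (1.33 to 1.79) lay above INSR (0.747 to 1.08).

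Of the 9 members past the filter, 1 was 2-fold higher or more with FLI1 and 0 were 2-fold lower or more. Over all 11659 genes past the filter, the shares beyond that size were 1.19% on the higher side and 0.48% on the lower. An interval above 0 was found for 5 members, IGFL1, IRS2, INSR, IGFBP3 and IGFBP6, and an interval below 0 for 1, IGFBP7; over all genes past the filter these shares were 16.5% and 14.7%. The median log2 ratio was 0.31 over the 9 members and -0.0036 over all genes past the filter. Since the members were chosen with these values known, nothing is read from the counts.

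**Figure D3:**
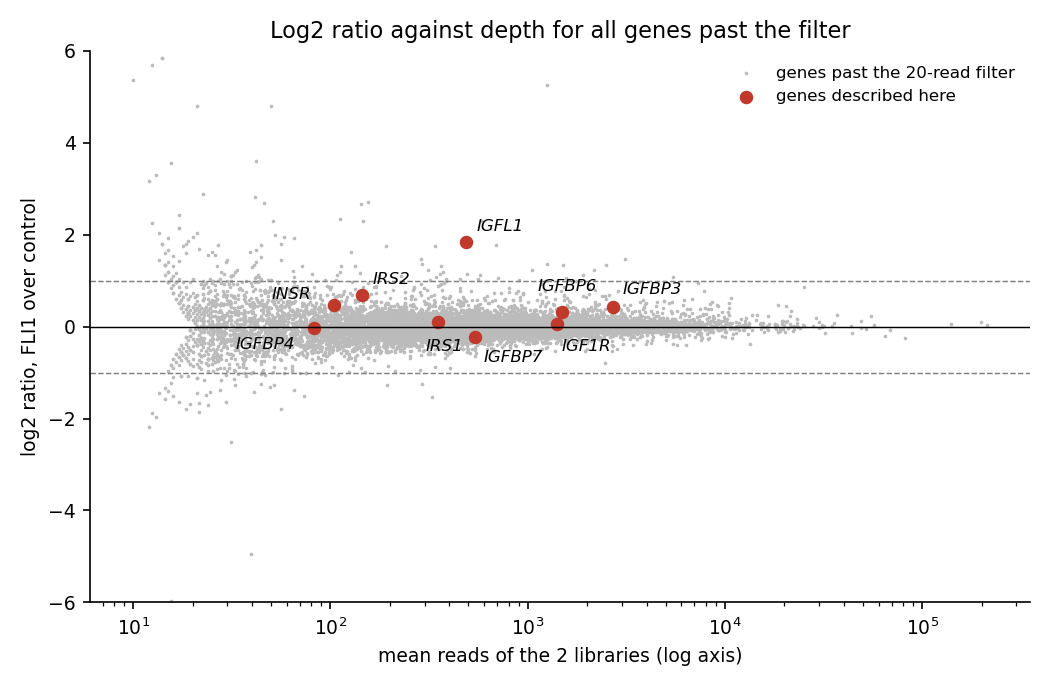
Log2 ratio (FLI1 library over vector control) against mean reads on a log axis for the genes past the 20-read filter (grey), with 9 members in red; dashed lines mark 2-fold and 4 genes fall outside the vertical range. IGFL1, at 1.85, lies above the upper dashed line, and the other 8 lie between both lines.

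The transcript table divides the reads of 4 members among several RefSeq transcripts, and for 3 of these 4, all but IGFBP3, a share differed between the libraries by more than its counting intervals. The intervals of these shares are exact binomial intervals of rounded reads and leave out the error of assigning reads to transcripts that differ by few bases. To show how little separates some of them, the differing letters were read from GENCODE release 29 (GRCh38), with the bases held by 1 form only in capitals and 15 shared bases on either side. They lie at chr19:7150497-7150532 (minus strand, exon 11 of INSR), chr7:45920720-45920737 (minus strand, end of exon 1 of IGFBP3) and chr15:98929558-98929560 (plus strand, start of exon 14 of IGF1R).
INSR NM_000208: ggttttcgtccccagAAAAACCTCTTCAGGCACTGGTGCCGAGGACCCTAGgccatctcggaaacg
INSR NM_001079817: ggttttcgtccccaggccatctcggaaacg
IGFBP3 NM_001013398: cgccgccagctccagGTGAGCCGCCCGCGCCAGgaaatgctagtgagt
IGFBP3 NM_000598: cgccgccagctccaggaaatgctagtgagt
IGF1R NM_000875: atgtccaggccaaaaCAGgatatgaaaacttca
IGF1R NM_001291858: atgtccaggccaaaagatatgaaaacttca
The forms differ by 36 bases in INSR, 18 in IGFBP3 and 3 in IGF1R, all within coding exons.

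INSR exon 11 separates the long B form of the insulin receptor, which holds it, from the short A form, which lacks it and binds IGF2 more tightly. The A form, NM_001079817, was given 0 of 88 reads with vector, a share with an upper limit of 4.11%, and 24.93 of 121 estimated reads with FLI1, a share of 20.7% (13.8% to 28.97%). The counting interval of its log2 ratio had a lower limit of 2.66 and no upper limit. The B form, NM_000208, had 88.00 and 96.07 estimated reads, with a log2 ratio of 0.13 (-0.30 to 0.57). The excess of INSR reads with FLI1 was therefore mostly assigned to the A form. The exon is 36 of the 4721 bases of the GENCODE model of the B form, or 0.763%. The transcript length used in the counting is not given. The deposited reads and FPKM of the B form imply one longer than this model, so the share there would be smaller. How many of these reads crossed the exon is not given in the table.

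For IGFBP7 the shorter form NM_001253835 was given 54.52 estimated reads with vector and 141.75 with FLI1. Its share was 9.42% (7.17% to 12.1%) with vector and 28.6% (24.6% to 32.8%) with FLI1. The main form NM_001553 had 529.51 and 354.90 estimated reads, a log2 ratio of -0.57 (-0.77 to -0.37), so the 2 forms differed in opposite directions. In the GENCODE models the main form ends in the exon of 564 bases that POLR2B overlaps, and the shorter form lacks that exon. The part of that overlap in the shift was not tested.

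IGF1R reads were spread over 6 transcripts, of which NM_001291858 was given the most, 49.6% (46.9% to 52.2%) with vector and 40.9% (38.3% to 43.5%) with FLI1. NM_000875, which holds the 3 additional bases, went from 14.8% (12.9% to 16.8%) to 25.1% (22.9% to 27.4%). Of the predicted models, XM_011521517 had 130.37 and 297.96 estimated reads, while XM_024449913 had 142.53 with vector and 0 with FLI1, and the interval of its log2 ratio had an upper limit of -5.25. The log2 ratio of IGF1R as a whole was 0.06. In IGFBP3 the form with the 18 bases had 20.80 and 55.19 estimated reads, 0.913% (0.566% to 1.39%) and 1.78% (1.35% to 2.31%) of the gene. Those share intervals overlapped slightly. The log2 ratio of this form was 1.38 (0.65 to 2.20), and that of NM_000598 was 0.42 (0.34 to 0.50).

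**Figure D4:**
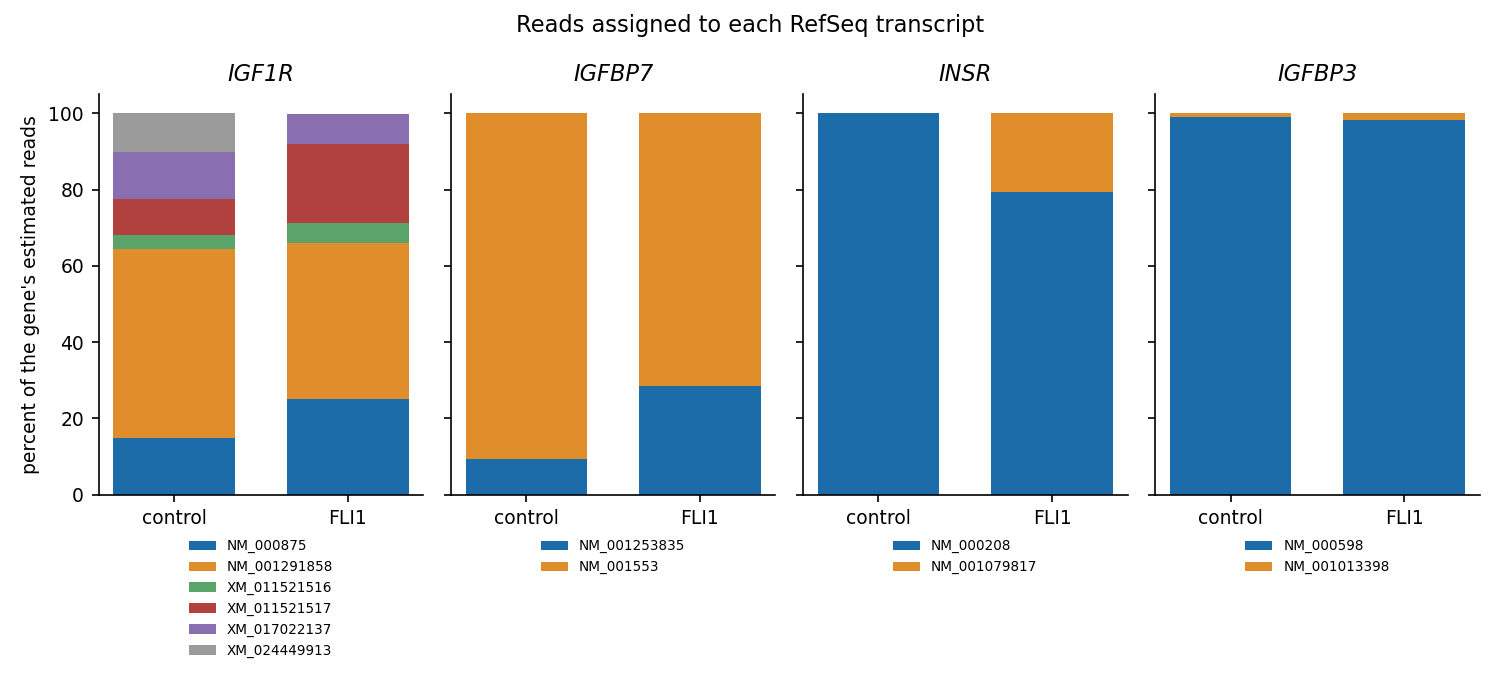
Percent of each gene's estimated reads assigned to each RefSeq transcript in the control and FLI1 libraries for the 4 members with more than 1 listed transcript. The A form of INSR takes 0% and 20.7%, and the shorter IGFBP7 form takes 9.42% and 28.6%.

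Of the ligand genes of the classical receptors, IGF2 had 0 reads with vector and 1 with FLI1. IGF1 and INS, like IGFL3, are not listed in the table.

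Other genes of the pathway were described as lists under the same 20-read filter. Of 12 measured adaptor genes of these receptors, IRS1 and IRS2 included, 1 reached 2-fold on the higher side and 0 on the lower, with a median log2 ratio of 0.14. That gene was GRB10, an adaptor that dampens signalling from IGF1R and INSR, with 219 reads with vector and 464 with FLI1 (log2 ratio 1.09, 0.86 to 1.33). In this list 6 intervals lay above 0 and 0 below it, where the shares over all genes past the filter were 16.5% and 14.7%. These shares, and 1.19% and 0.48% for 2-fold higher and lower, are the background of each list count that follows, and the lists were chosen with earlier results known.

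Of 28 measured genes of the PI3K, AKT and mTOR core, 0 differed 2-fold in either direction, 3 intervals lay above 0 and 5 below it. The median was 0.0014, and it was below 0 under both other scalings of the libraries. Its genes with the highest mean FPKM were RHEB, the activator of mTOR complex 1 (1712 and 1716 reads, log2 ratio 0.01), and EIF4EBP1, a translation repressor that mTOR inactivates (1230 and 1211 reads, -0.01). Among 10 measured negative regulators of insulin and AKT signalling, 2 reached 2-fold on the higher side and 0 on the lower, the list median was 0.08, and 5 of the intervals lay above 0 with none below. The 2 genes past 2-fold were SOCS3, an inhibitor of cytokine and insulin receptor signalling (42 and 89 reads, 1.08, 0.55 to 1.66), and PIK3IP1, a PI3K inhibitor (71 and 143 reads, 1.01, 0.60 to 1.45). PIK3IP1 fell below 2-fold when libraries were scaled by their totals, and GRB10, SOCS3 and PIK3IP1 all did so from FPKM with 0.5 added. Without that addition the FPKM ratios of GRB10, SOCS3 and PIK3IP1 were 2.098, 2.107 and 2.004.

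FOXO factors are shut out of the nucleus when AKT is active, and INSR and IRS2 are among the genes they are known to switch on. Of 13 measured genes in the FOXO list, INSR and IRS2 included, 0 differed 2-fold, 5 intervals lay above 0 and 2 below it, with a median of 0.13. By FPKM averaged over both libraries, the highest genes of this list were CDKN1B, a cell cycle inhibitor (746.95 and 574.60 estimated reads, -0.37, -0.53 to -0.21), and TXNIP, an inhibitor of thioredoxin and glucose uptake (213 and 357 reads, 0.75, with a lower limit of 0.50). The genes of this list thus differed in both directions.

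Of 4 measured genes among IGFBP proteases and their inhibitors, PLAU, which encodes urokinase, was higher (7044 and 9795 reads, 0.48, 0.44 to 0.53) and CTSD, the lysosomal protease cathepsin D, was lower (11595 and 10342 reads, -0.16, -0.20 to -0.12). PAPPA had 17 and 15 reads, below the filter. Both measured IGF2 mRNA-binding proteins differed by less than 1.1-fold, IGF2BP2 at 0.12 (0.03 to 0.21) and IGF2BP3 at -0.04 (-0.18 to 0.09). Of 3 measured CCN genes, matrix proteins once classed as low-affinity IGF-binding relatives, CCN2 was at least 2-fold higher (12 and 42 reads, 1.77, 0.86 to 2.88). It passed the filter through the FLI1 library alone.

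**Figure D5:**
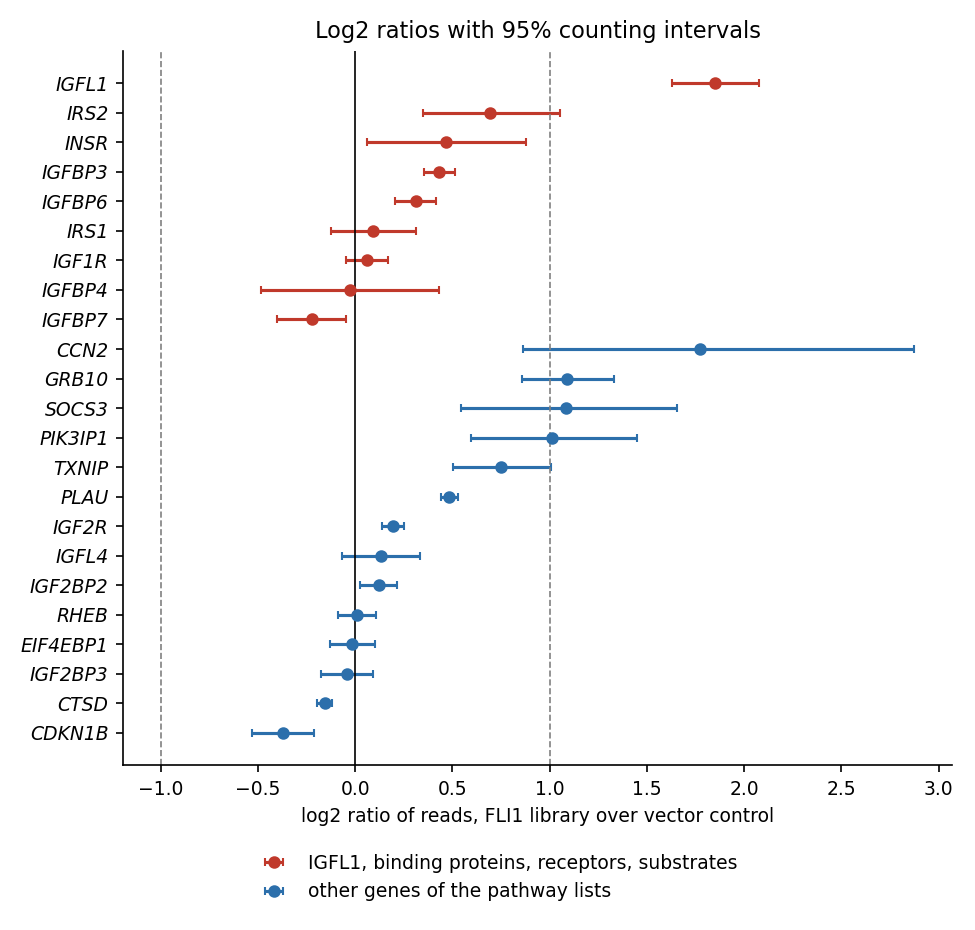
Log2 ratio of reads (FLI1 library over vector control) with 95% counting intervals for 9 members (red) and 14 other pathway genes (blue); dashed lines mark 2-fold. IGFL1 at 1.85 has an interval wholly beyond 2-fold, whereas the intervals of CCN2, GRB10, SOCS3 and PIK3IP1 cross that line.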

How the data were processed

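RNA-seq values of 2 HaCaT libraries were used, 1 per group, with groups read from genotype. Total RNA was read on the BGISEQ platform, per the labels' protocols, against GRCh38.p13, per the submitters' processing notes. Not given in the sources used here are the aligner, counting tool, annotation and strand setting. Per the file headers, the gene table (15159 genes) and the transcript table (61479 transcripts) hold read counts, FPKM and TPM for both libraries. These deposited counts are estimated counts, whole to within 0.005 reads for 84.1% of genes with vector and 84.5% with FLI1. The design had foreseen whole counts, so they were rounded. The deposited FPKM values, which the authors scaled by length and depth, were used as levels, and the deposited TPM values as an alternative scale.

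Libraries were scaled by TMM (edgeR 4.0.16, R 4.3.3; factors 1.01 and 0.991). The log2 ratio used reads plus 0.5, and its 95% interval is the exact conditional (Clopper-Pearson) interval of both counts. The labels mention no molecular identifiers, so reads may not be independent molecules, and intervals cover counting error only. The filter kept genes that reached 20 reads in either library, and 2-fold was a rule of size. The calculation was tested on simulated data. Alternatives were library totals, DESeq2 1.42.0 size factors, FPKM or TPM with 0.5 added, FPKM with 1 added, 2 reads added, unrounded counts, the summed transcript table and filters at 100 reads or 1 read. Positions, overlaps and transcript sequences came from GENCODE release 29, and shared sequence from BLAST+ 2.17.0 (at least 50 bases, 98% identity). All 10 members matched a GENCODE transcript.

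The members, lists and motifs were chosen with earlier results of these data known. The genes named were FLI1, the 10 members, the other ligand, receptor and binding protein genes, the 3 genes most like IGFL1, and from each of 10 pathway lists up to 4 non-members past the filter and the 2-fold rule, or else the 2 with the highest mean FPKM. POLR2B and the antisense genes were named after values had been seen, for their overlap with members. A gene that this rule selects is not reported here.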

Additional observations from a re-analysis of the deposited data

How the results depend on the processing

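Over 8 alternatives each, the log2 ratio ran from 1.81 to 1.85 for IGFL1, 0.40 to 0.43 for IGFBP3, 0.29 to 0.31 for IGFBP6, -0.25 to -0.11 for IGFBP7, 0.37 to 0.69 for IRS2 and 0.19 to 0.47 for INSR. The lowest INSR and IRS2 values came from FPKM with 1 added, which understates low genes. None of these 6 ratios changed sign under these alternatives, and their intervals stayed on the same side of 0 under all 3 scalings. No paired analysis was possible because each group had 1 library, and no library could be left out. The median of the members was 0.19 from FPKM with 1 added and 0.20 with a minimum of 1 read. Over all genes, those at least 2-fold higher and lower numbered 66 and 10 from FPKM with 0.5 added, 50 and 7 from FPKM with 1 added, 82 and 23 from TPM with 0.5 added, 49 and 7 at a minimum of 100 reads, and 1178 and 847 at a minimum of 1 read. GRB10 was no longer 2-fold from FPKM with 0.5 or 1 added or TPM with 0.5 added, leaving 0 such adaptor genes. The negative regulators at least 2-fold higher numbered 1 by library totals and at a minimum of 100 reads, and 0 on those FPKM and TPM scales. A minimum of 1 read gave 1 adaptor gene and 1 FOXO list gene at least 2-fold lower. Transcript shares by FPKM weigh length. The shorter IGFBP7 form then had 13.57% with vector and 37.93% with FLI1 (TPM 13.57% and 37.94%), NM_000875 of IGF1R 10.15% and 16.3% (TPM 10.17% and 16.3%), XM_011521517 20.22% and 42.09% (TPM 20.25% and 42.07%), and XM_024449913 19.1% with vector (TPM 19.09%). NM_001291858 of IGF1R had 34.17% and 26.5% by FPKM (TPM 34.14% and 26.54%). With FLI1 the largest IGF1R share on these scales was thus that of XM_011521517, not NM_001291858. Depth limits IGFBP2, IGFLR1 and IGFL2 most, and the interval of INSR ended near 0.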
